A study of Rattus norvegicus with 18 samples.

Results

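Birc3, Tnfaip3 (which encodes A20) and 7 further genes that NF-kappaB is known to induce or that act beside it in cell survival were followed in rat cortical collecting ducts after lipopolysaccharide (LPS), the bacterial cell wall component. The 9 genes were Birc2, Birc3, Cflar, Tnfaip3, Tnip1, Ripk2, Traf1, Tnfaip2 and Sod2. They were taken by gene symbol, and each matched 1 row of the 32883 in the table. The ducts were microdissected from kidneys of male Sprague-Dawley rats 3 h after an intraperitoneal injection of LPS or of saline vehicle. The labels name no engineered allele, and neither the age of the rats nor the LPS dose was given in the sources used here. Each group held 3 numbered samples, with 3 libraries per sample. The design text calls the samples paired, and samples of the same number were taken here as the pairs. Whether each numbered sample was a separate animal, and what the pairing was, is not stated, so the p-values cover the variation among these samples, which may be technical.

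NF-kappaB is a transcription factor that inhibitor proteins hold in the cytoplasm until receptors such as TLR4 or the tumour necrosis factor receptor set off their destruction. Among the genes it turns on are guards against cell death, which keep the receptor complex from activating caspase-8, and brakes that end the signal itself. In the collecting duct, the last tubule segment to adjust urine, such signals are known from infection ascending the urinary tract and from sepsis.

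Values are TPM, a length-corrected transcript abundance scaled to the same total in each library, and a sample's value is the mean of its 3 libraries. LPS and Vehicle were compared with limma on log2(TPM + 1), with the sample number as a block. A gene was called at an adjusted p under 0.05, with Benjamini-Hochberg adjustment over the 12393 genes whose mean reached 1 TPM. The collecting duct's 10 principal cell markers summed to between 8830 and 12349 TPM in LPS samples and between 15884.5 and 17637 TPM in Vehicle samples. Of these 10, 8 were called lower and 2 were not called. Its 8 intercalated cell markers summed to between 3132 and 4265 TPM in LPS and between 4673 and 4998 TPM in Vehicle. Of these 8, 2 were called lower and 6 were not called. The 14 macrophage markers summed to between 222 and 469 TPM in LPS, highest in LPS 1, and between 130.01 and 269 TPM in Vehicle, with 5 of 11 tested members higher, 1 lower and 0 of the 14 at 0 in every library. The 7 neutrophil markers summed to between 2.17 and 81.1 TPM in LPS and between 0.0933 and 0.47 TPM in Vehicle. Library 3 of LPS 3 held 227 TPM of them, and the next highest library 14.5 TPM. Both tested members were higher, but they passed the filter through LPS alone, so that direction was fixed in advance. The other 5 were not tested. Endothelial markers summed to between 40.8 and 96.4 TPM in LPS and between 23.8 and 110.5 TPM in Vehicle. Of the 8 tested, 1 was higher, Esam, with a mean of 20.9 TPM in LPS and 4.65 TPM in Vehicle. Another 1 was lower, Egfl7, with 2.50 TPM in LPS and 6.45 TPM in Vehicle, and 6 were not called. Stray cell markers set 3 libraries apart: library 3 of LPS 3 in neutrophil markers, library 1 of LPS 2 in thick ascending limb markers, and library 1 of Vehicle 1 in distal tubule markers. Libraries 2 and 3 of Vehicle 1 were also high in distal tubule markers, at 3651 and 2065 TPM. No library of another sample exceeded 473.31 TPM. Libraries 2 and 3 of Vehicle 1 stayed in the fit that left those 3 libraries out. Each LPS library also held fewer genes at 1 TPM or more, between 11399 and 11841, than any Vehicle library, between 11932 and 12704. The part of leukocytes, and of this difference in genes detected, in the changes below was not tested. In whole ducts, fewer cells of a type and less RNA per cell cannot be told apart.

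Of the 9 genes, 8 were higher in LPS ducts, and Traf1 was the exception. Birc3 moved most, with a mean 78.6 times as high in LPS as in Vehicle. Sod2 was the most abundant of the 9 in both groups. All 9 were tested, and all 9 had a Vehicle mean of at least 1 TPM. By limma 8 of the 9 were called higher and 0 lower, where 7.17% of all tested genes were called higher and 22.2% lower. The median log2 change was 2.43 over the 9 genes and -0.38 over all tested genes. In the same 8 genes every LPS sample lay above every Vehicle sample, as in 9.82% of tested genes, and in 0 of the 9 every LPS sample lay below, as in 47.1%. Those 8 were also higher in every LPS library than in any Vehicle library, which held for 5.12% of tested genes.

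The 8 calls stood under quantile normalization and under median-ratio scaling. They also stood without the sample-number block and without the 3 libraries that stood apart, where Birc3 changed by 6.02. By limma 6 of the 9 genes were called without replicate 2, and 0 without replicate 3 or when libraries were summarised by their median, although all 8 had an unadjusted p under 0.05 in these 3 fits. With no filter on low values 2 were called, Birc3 and Ripk2.

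**Figure D1:**
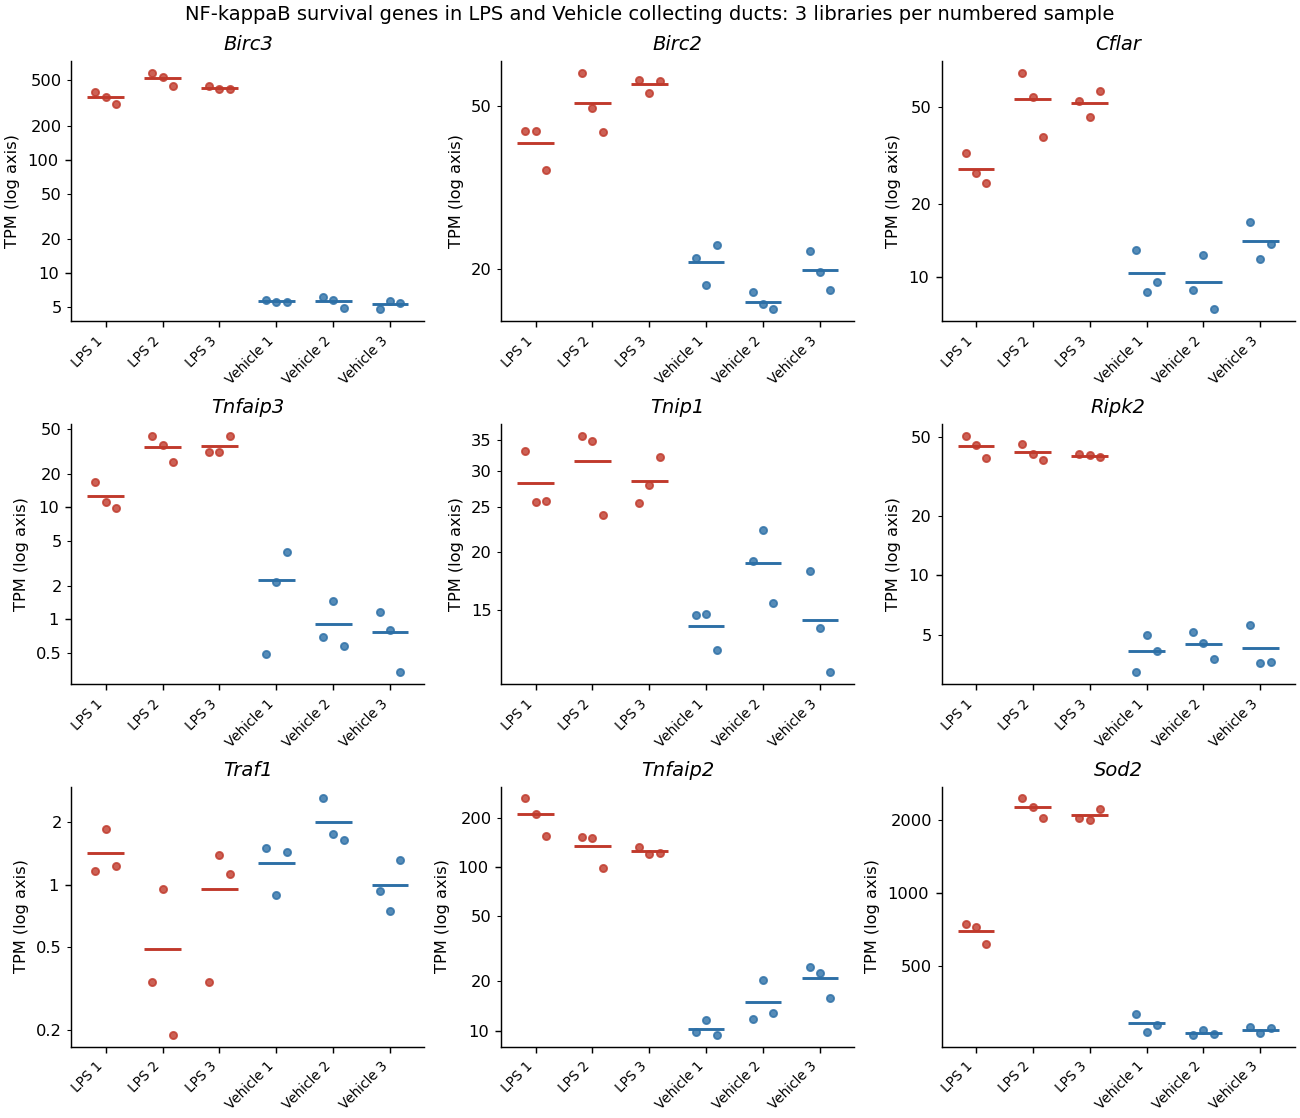
TPM on a log axis of each of the 9 genes in the 6 numbered samples, LPS samples in red and Vehicle samples in blue. Points are the 3 libraries of a sample and bars their mean. The LPS and Vehicle libraries do not overlap in any gene but Traf1, and Sod2 shows a gap between LPS 1 at 693 TPM and LPS 2 and 3 at 2252 and 2086 TPM.

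Birc3 and Birc2 encode the cellular inhibitors of apoptosis cIAP2 and cIAP1, ubiquitin ligases that mark RIPK1 in the receptor complex and so favour survival signalling over death. Birc3 (ENSRNOG00000005731) stood at 355, 520.1 and 429 TPM in LPS 1, 2 and 3, against 5.63, 5.64 and 5.31 TPM in Vehicle 1, 2 and 3. The LPS libraries ran from 311 to 582 TPM and the Vehicle libraries from 4.80 to 6.19 TPM, so the groups were far apart. Its log2 change was 6.04 (SE 0.183, limma adjusted p = 4.9e-05), with the smallest p of the 12393 genes tested (rank 1) and rank 25 by size of the rise. By level it ranked 394 of the tested genes in LPS and 9212 in Vehicle.

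Birc2 (ENSRNOG00000010602) stood at 40.6, 51.0 and 56.4 TPM in the LPS samples, against 20.8, 16.6 and 19.8 TPM in the Vehicle samples. Every LPS sample lay above every Vehicle sample. Its log2 change was 1.32 (SE 0.200, limma adjusted p = 0.00809), and 1.20 with adjusted p = 0.0674 without replicate 2. Birc2 and Birc3 are neighbours on rat chromosome 8 in the RefSeq gene table for GRCr8, which also lists Birc2 among the older symbols of Birc3, and reads that fit both paralogs are shared out by estimate.

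Birc3 was the more abundant of the pair in LPS and Birc2 in Vehicle. Birc3 made up 89.7% ± 1.36 of the summed Birc2 and Birc3 TPM in LPS and 22.7% ± 2.29 in Vehicle (SD, n = 3 each). The sum of both was 395, 571 and 486 TPM in the LPS samples and 26.4, 22.2 and 25.2 TPM in the Vehicle samples. The log2 ratio of Birc3 to Birc2 within a sample, taken on TPM + 1, was 3.10, 3.33 and 2.91 in LPS and -1.71, -1.41 and -1.72 in Vehicle, a difference of 4.72. A two-sided exact permutation test over the samples gave p = 0.1, the smallest that 3 against 3 samples allow. Unlike the limma fit, this test did not use the pairing by sample number.

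**Figure D2:**
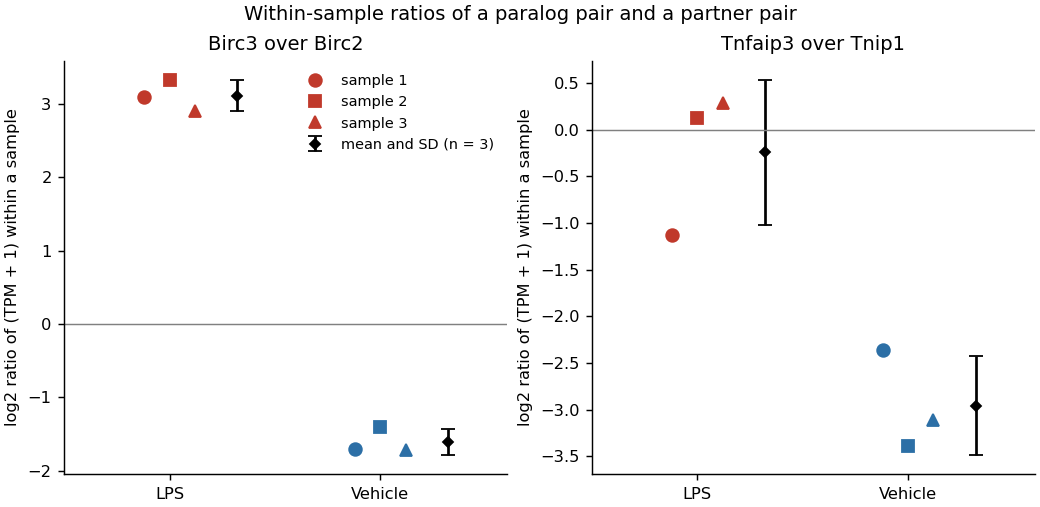
Log2 ratio of TPM + 1 within each numbered sample of Birc3 to Birc2 (left panel) and of Tnfaip3 to Tnip1 (right panel), LPS in red and Vehicle in blue, with the group mean and SD (n = 3) as black diamonds. The Birc3 ratio lies above 0 in every LPS sample and below 0 in every Vehicle sample, and the Tnfaip3 ratio lies below 0 in LPS 1 at -1.13 and above it in LPS 2 and 3.

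Tnfaip3 and Tnip1 encode A20, a ubiquitin-editing enzyme that shuts off NF-kappaB signalling, and ABIN1, a ubiquitin-binding protein that A20 works with. Promoters are shown because these genes carry matches to the NF-kappaB binding motif just before their start. The stretches below are the 120 bases before the RefSeq start in GRCr8, written 5′ to 3′ on the gene's strand. Capitals mark matches to the kappaB consensus on either strand in Tnfaip3 and Tnip1, and to GGG followed by any 3 bases and TTCC in Traf1, whose stretch holds no match to the consensus.
Tnfaip3, chr1:15543980-15544099, minus strand: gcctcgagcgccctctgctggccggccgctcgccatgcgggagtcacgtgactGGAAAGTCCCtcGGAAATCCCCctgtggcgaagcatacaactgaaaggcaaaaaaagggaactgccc
Tnip1, chr10:39584962-39585081, minus strand: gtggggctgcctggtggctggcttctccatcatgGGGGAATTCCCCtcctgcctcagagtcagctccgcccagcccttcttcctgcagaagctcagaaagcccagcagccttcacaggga
Traf1, chr3:38635771-38635890, minus strand: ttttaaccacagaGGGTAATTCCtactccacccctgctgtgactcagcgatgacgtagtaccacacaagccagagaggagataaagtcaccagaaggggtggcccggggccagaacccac
In Tnfaip3 the capitals lie at -67 to -58 and -55 to -46, counted back from -1 next to the start, and read GGGACTTTCC and GGGGATTTCC on the opposite strand. A further match, at -170 to -161, lies outside the stretch shown, and GGGCAGTTCC, at -10 to -1 on the opposite strand, matches only the other motif and is left in lower case. In Tnip1 overlapping matches on both strands fill -86 to -75, and in Traf1 the capitals lie at -107 to -98. Windows of 300 bases, from 250 before to 50 after the start, were found by symbol for 7 of the 9 genes. Birc3 and Ripk2 were not analysed here. The kappaB consensus occurred on either strand in 2 of these 7 windows and in 7.51% of all 33469 windows. The other motif, GGG with any 3 bases and TTCC, which overlaps the consensus in Tnfaip3 and Tnip1, occurred in 3 of the 7 and in 5.37% of all. A match is a run of letters, not a shown binding site, and the windows of Birc2, Cflar, Tnfaip2 and Sod2 held neither motif.

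Tnfaip3 (ENSRNOG00000049517) stood at 12.5, 34.8 and 35.1 TPM in LPS 1, 2 and 3, against 2.23, 0.917 and 0.770 TPM in the Vehicle samples. LPS 1 was the low one of its group, and still lay above every Vehicle sample. The log2 change was 3.59 (SE 0.425, limma adjusted p = 0.00342), and since the Vehicle values are near the added 1, it understates the fold: the ratio of the group means was 21.1. With an added 0.1 or 5 in place of 1 the change was 4.47 or 2.27, called in both.

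Tnip1 (ENSRNOG00000010370) stood at 28.2, 31.5 and 28.5 TPM in the LPS samples, against 13.9, 19.0 and 14.3 TPM in the Vehicle samples. The groups did not overlap, but the gap was the narrowest of the 8 called genes. Its log2 change was 0.88 (SE 0.184, limma adjusted p = 0.0203), and 0.97 with adjusted p = 0.133 without replicate 2. Beside it, the change of Tnfaip3 was larger in each of the 3 pairs. The log2 ratio of Tnfaip3 to Tnip1, on the same scale, was -1.13, 0.13 and 0.28 in the LPS samples. In the Vehicle samples it was -2.37, -3.40 and -3.11, a difference of 2.72 (two-sided exact permutation test without the pairing, p = 0.1, the smallest possible). The difference was 3.55 with an added 0.1 and 1.53 with an added 5.

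Cflar encodes cFLIP, a caspase-8 look-alike without protease activity that blocks death receptor signals. Cflar (ENSRNOG00000012473) stood at 27.9, 54.0 and 52.3 TPM in the LPS samples, against 10.4, 9.53 and 14.1 TPM in the Vehicle samples. LPS 1 was again the lowest of its group, and the groups did not overlap. The log2 change was 1.85 (SE 0.237, limma adjusted p = 0.00475).

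Ripk2 encodes the kinase that carries signals from the bacterial peptidoglycan sensors NOD1 and NOD2 to NF-kappaB. Ripk2 (ENSRNOG00000009389) stood at 45.03, 41.8 and 40.2 TPM in the LPS samples, against 4.12, 4.47 and 4.27 TPM in the Vehicle samples. Here the LPS samples were close to each other and LPS 1 was the highest. The log2 change was 3.04 (SE 0.188, limma adjusted p = 0.000389), with rank 26 by p among the tested genes.

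Traf1 encodes an adaptor that joins TRAF2 and the cIAPs in receptor complexes and is known as an NF-kappaB target in lymphoid cells. In these ducts Traf1 (ENSRNOG00000048914) was barely detected, at 1.41, 0.493 and 0.950 TPM in the LPS samples and 1.27, 2.00 and 1.00 TPM in the Vehicle samples. The groups overlapped. The log2 change was -0.34 (SE 0.318, limma adjusted p = 0.418), close to the median of all tested genes, and ranged from -0.69 to 0.01 over 15 alternatives, called in 0 of them. Single libraries ran from 0.190 to 1.85 TPM in LPS and from 0.750 to 2.60 TPM in Vehicle, so the groups overlapped in single libraries too.

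Tnfaip2, known as a tumour necrosis factor response gene, encodes M-Sec, which shapes thin membrane bridges between cells. Tnfaip2 (ENSRNOG00000010165) stood at 209, 133.8 and 124 TPM in LPS 1, 2 and 3, against 10.3, 15.0 and 20.9 TPM in Vehicle 1, 2 and 3. The groups were far apart, and LPS 1 was the highest, as it was in macrophage markers (469 TPM summed), whose part here was not tested. The log2 change was 3.27 (SE 0.308, limma adjusted p = 0.00151).

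Sod2 encodes the manganese superoxide dismutase of mitochondria, which removes superoxide and is induced by NF-kappaB in many cell types. Sod2 (ENSRNOG00000019048) stood at 693, 2252 and 2086 TPM in the LPS samples, against 288, 263 and 272 TPM in the Vehicle samples. Even LPS 1 lay above every Vehicle sample. The log2 change was 2.43 (SE 0.335, limma adjusted p = 0.0061). Sod2 ranked 78 by level among the tested genes in LPS and 585 in Vehicle.

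In LPS the order by mean TPM was Sod2 (1677), Birc3 (435), Tnfaip2 (156), Birc2 (49.3), Cflar (44.7), Ripk2 (42.4), Tnip1 (29.4), Tnfaip3 (27.5) and Traf1 (0.952). Birc2, Cflar and Ripk2 overlapped in their sample values, and so did Tnip1 and Tnfaip3. Cflar also overlapped with both Tnip1 and Tnfaip3. In Vehicle the order was Sod2 (275), Birc2 (19.1), Tnip1 (15.7), Tnfaip2 (15.4), Cflar (11.3), Birc3 (5.53), Ripk2 (4.29), Traf1 (1.42) and Tnfaip3 (1.304). There Birc2 overlapped with Tnip1 and Tnfaip2, Tnip1 with Tnfaip2 and Cflar, Tnfaip2 with Cflar, and Traf1 with Tnfaip3.

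The 9 genes did not vary alike between the LPS samples. Of the 9, 6 were lowest in LPS 1 (Birc2, Birc3, Tnfaip3, Tnip1, Cflar and Sod2) and 3 were highest there (Traf1, Tnfaip2 and Ripk2). On the first principal component of all tested genes, with 75.2% of the variance, LPS 1 scored 16.8, LPS 2 and 3 scored 70.2 and 68.4, and the Vehicle samples lay between -56.6 and -47.8. The highest LPS sample was 3.25 times the lowest for Sod2 and 2.802 times for Tnfaip3, but 1.12 times for both Ripk2 and Tnip1. On the log2 scale the SD between LPS samples was 0.95 for Sod2, 0.82 for Tnfaip3, 0.27 for Birc3 and 0.08 for Ripk2, where the median of all tested genes was 0.25. Between Vehicle samples it was 0.07 for Sod2, 0.39 for Tnfaip3, 0.04 for Birc3 and 0.05 for Ripk2, with a median of 0.17.

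By pair, the log2 differences of Sod2 were 1.26, 3.09 and 2.93 in pairs 1, 2 and 3, and those of Tnfaip3 were 2.20, 4.22 and 4.36. Pair 1 was the smallest for both. Tnfaip2 was instead highest in pair 1, with 4.19, 3.09 and 2.54, while Ripk2 was level at 3.17, 2.97 and 2.99. Without replicate 1 the change was 3.01 for Sod2, 4.29 for Tnfaip3 and 2.81 for Tnfaip2, each still called.

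**Figure D3:**
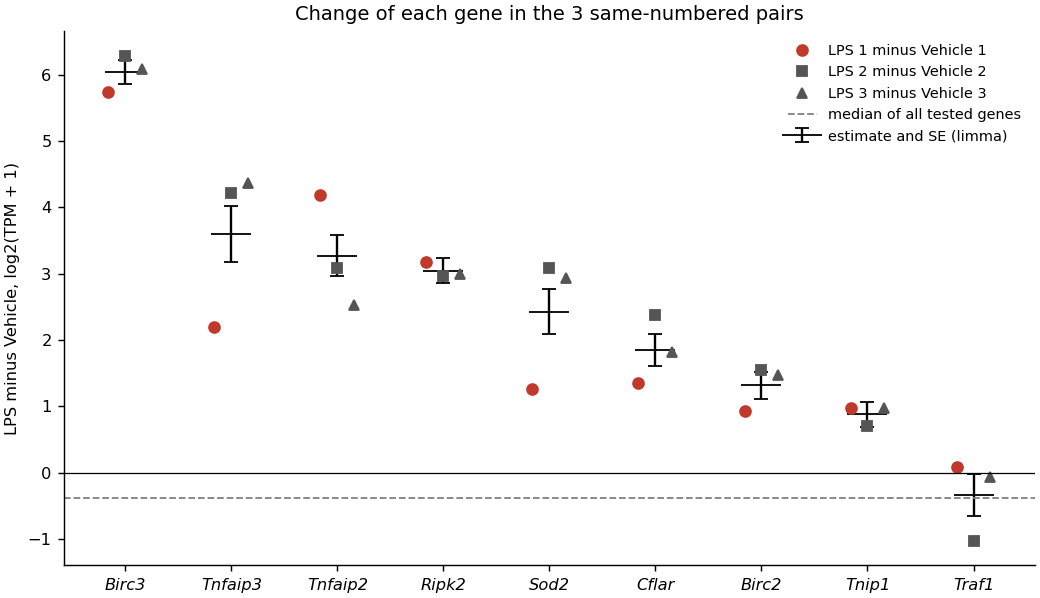
Difference of LPS minus Vehicle in log2(TPM + 1) for each gene in the 3 same-numbered pairs (symbols, pair 1 in red), with the limma estimate and SE in black and the median of all tested genes as a dashed line. Pair 1 is the lowest for Sod2 at 1.26 and for Tnfaip3 at 2.20 and the highest for Tnfaip2 at 4.19, and Birc3 lies between 5.74 and 6.29.

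The genes whose log2(TPM + 1) followed Birc3 most closely over the 18 libraries were Bcl3, Relb, Tmem140, Ifit3 and Nfkb2, with Pearson r of 0.997, 0.994, 0.994, 0.993 and 0.992. Those most like Tnfaip3 were Socs1, Slfn2, Tgif1, Rap2c and Rsad2, with r of 0.987, 0.985, 0.985, 0.984 and 0.984. Genes picked for following Birc3 or Tnfaip3 across both groups rise in LPS by that choice. The changes of the 10 ran from 1.96 for Rap2c to 10.16 for Ifit3 on the log2 scale. Bcl3, at 0.579 TPM in Vehicle, passed the filter through LPS alone. Of the other 8 genes, Ripk2 was most like Birc3 (r = 0.992) and Birc2 was most like Tnfaip3 (r = 0.970). Traf1 had r of -0.442 with Birc3 and -0.516 with Tnfaip3. These values describe 18 libraries from 6 samples, 3 of which share each sample, and the r values span both groups.

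The 9 genes lie on 7 chromosomes in GRCr8. Of the 16 nearest tested protein-coding genes on either side that were not themselves among the 9, 1 was called higher and 2 lower, where 7.17% and 22.2% of tested genes were. The 1 higher neighbour was Casp8, next to Cflar, with 37.9 TPM in LPS and 15.4 TPM in Vehicle. Osgin2, next to Ripk2, was lower, with 14.7 TPM in LPS and 52.2 TPM in Vehicle, a log2 change of -1.80 (SE 0.211, limma adjusted p = 0.0034). Rsph3, on the Sod2 side of chromosome 1, was lower at -1.302 (adjusted p = 0.0191 by limma). On the far sides of the Birc2 and Birc3 pair, Tmem123 had a log2 change of -0.04 and Yap1 of 0.18, neither called.

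Genes that act with or against the 9 were called in both directions. Of 60 such genes in 6 lists, 55 were tested, and 54 had a mean of at least 1 TPM in both groups. By limma 9 of these 54 were higher, 7 lower and 38 not called. That is 16.7% higher and 13% lower, where 7.17% and 22.2% of all tested genes were, and 29.4% were called in either direction. Their median log2 change was -0.16, against -0.38 over all tested genes. The other tested gene, Map3k14, passed the filter through LPS alone, and is counted with the 55 in what follows. Over the 55 the split was 10 higher and 7 lower. With median-ratio scaling the split was 10 higher and 0 lower, where 821 of all tested genes were higher and 460 lower. With quantile normalization it was 9 and 3, where 809 of all tested genes were higher and 579 lower. Without the 3 libraries that stood apart the split of the 55 was 8 and 2, and without replicate 2 it was 2 and 0. Without replicate 3 it was 0 and 0 by limma, with 10 at an unadjusted p under 0.05.

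In the receptor complex, 2 of the 14 genes at 1 TPM or more in both groups were higher and 2 lower. Over all tested genes the shares were 7.17% and 22.2%. Tnfrsf1a, the gene of the main tumour necrosis factor receptor, stood at 58.9, 131.4 and 115.8 TPM in the LPS samples, against 24.0, 24.5 and 21.0 TPM in the Vehicle samples (log2 2.02, SE 0.259, limma adjusted p = 0.00479). Ripk1, the kinase that the cIAPs modify, was higher at 1.47. Map3k14, the kinase NIK that the cIAPs mark for destruction, averaged 2.79 TPM in LPS and 0.876 TPM in Vehicle. Tradd, the adaptor that brings RIPK1 to the receptor, was lower at -1.25, with 28.9, 15.0 and 14.9 TPM in the LPS samples, against 44.6, 43.5 and 48.4 TPM in the Vehicle samples. Tab1, a partner of the kinase TAK1, was lower at -1.08. With median-ratio scaling Tradd and Tab1 were not called, at -0.86 and -0.70. Traf2 and Traf5, the most abundant genes not called, had log2 changes of 0.41 and 0.69, and Traf2 was called with median-ratio scaling, at 0.81.

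Of the linear ubiquitin ligase, A20 partners and deubiquitinases, 10 were tested, with 2 higher and 2 lower, against 7.17% and 22.2% of tested genes. Rnf31, the catalytic subunit HOIP of the linear ubiquitin ligase, stood at 27.6, 30.4 and 28.6 TPM in the LPS samples, against 11.35, 11.45 and 14.25 TPM in the Vehicle samples (log2 1.16, SE 0.188, limma adjusted p = 0.00996). Its partner subunit Sharpin was lower at -0.84, and the third subunit, Rbck1, stood at 71.0 TPM in LPS and 78.1 TPM in Vehicle without a call. Tnip2, a relative of Tnip1, was higher at 1.498, and Itch, a ligase that A20 works with, was lower at -0.88. Sharpin and Itch were not called with either scaling, at -0.44 and -0.50 with median-ratio scaling. Tax1bp1, another A20 partner, stood at 191 TPM in LPS and 263 TPM in Vehicle and was not called.

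Among 8 other anti-apoptotic genes, 1 was called higher, Bcl2a1, and 0 lower, against 7.17% and 22.2% of tested genes. Bcl2a1 stood at 13.3, 7.19 and 8.03 TPM in the LPS samples and 1.78, 1.19 and 1.26 TPM in the Vehicle samples. Its log2 change was 2.02 (SE 0.252, limma adjusted p = 0.00421). Bcl2a1 is known from leukocytes, and its highest sample, LPS 1, was also the highest in summed macrophage markers, at 469 TPM. The part of those cells in this result was not tested. Gadd45b and Ier3, both known NF-kappaB targets, varied widely: Ier3 stood at 234, 723 and 957 TPM in the LPS samples, against 667, 217 and 309 TPM in the Vehicle samples, and neither was called. Without replicate 1 Ier3 was called, at 1.69 (limma adjusted p = 0.0112), against 0.73 with all samples, while Gadd45b was 1.44 and not called.

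Of 11 genes of death receptor and mitochondrial apoptosis, 3 were higher and 2 lower, against 7.17% and 22.2% of tested genes. Casp8, the protease that cFLIP holds back, was higher at 1.18. Its call was lost with median-ratio scaling (1.56, limma adjusted p = 0.0626) and with quantile normalization (1.48, limma adjusted p = 0.0571). The call was also lost without the libraries that stood apart (1.16, limma adjusted p = 0.0568). Bak1, which opens the outer mitochondrial membrane, was higher at 1.29. Bax, of the same function as Bak1, was lower at -0.79, with 41.2, 38.7 and 30.6 TPM in the LPS samples, against 64.1, 50.8 and 77.8 TPM in the Vehicle samples. Casp9, the protease of the mitochondrial route, was lower at -1.15, and neither of these falls was called with either scaling. Diablo, an antagonist of the IAPs, was not called, at -0.17, while median-ratio scaling gave 0.23 and quantile normalization -0.11.

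Upstream of Ripk2, Nod1 was higher at 0.97, with 4.24, 7.01 and 10.03 TPM in the LPS samples, against 2.74, 2.697 and 3.19 TPM in the Vehicle samples, called by limma at adjusted p = 0.0363. Median-ratio scaling gave a change of 1.29 (limma adjusted p = 0.0573) and quantile normalization 1.34 (adjusted p = 0.0507), larger in both but not called. Nod2 and Card9 averaged below 1 TPM in every sample and were not tested, and Erbin was not called. Beside Sod2, 8 of 9 other antioxidant enzymes were not called, where 29.4% of all tested genes were called in either direction. Gpx1, a glutathione peroxidase gene, was the 1 called, lower at -0.42, with 1665 TPM in LPS and 2218 TPM in Vehicle. Median-ratio scaling gave -0.02 without a call, and quantile normalization -0.57 with a call. Prdx5 and Txn2, both found in mitochondria, had log2 changes of -0.03 and -0.17. Median-ratio scaling gave 0.38 and 0.24, and quantile normalization -0.14 and -0.26.

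**Figure D4:**
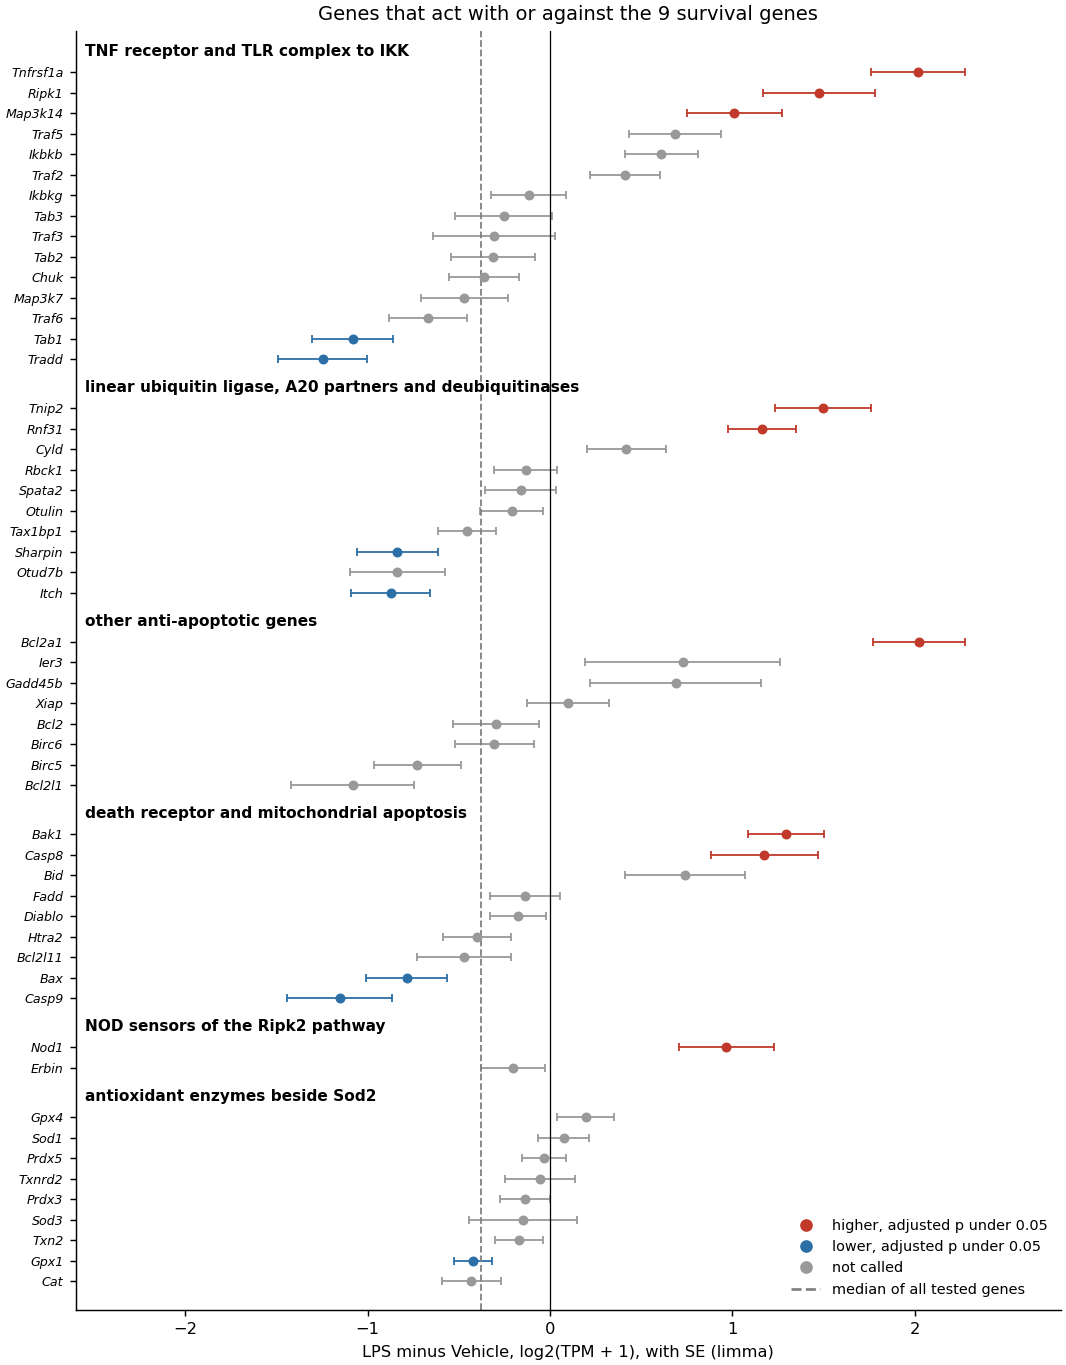
Log2 change of LPS minus Vehicle with its SE (limma) for 53 of the tested genes that act with or against the 9, grouped by list and ordered by size. Red marks 9 genes called higher, blue 7 called lower and grey 37 not called, Map3k14 in red having passed the filter through LPS alone, and the dashed line at -0.38 is the median of all tested genes.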

How the data were processed

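RNA from dissected rat cortical collecting ducts was made into libraries with SMARTer and Nextera XT kits, per the labels' protocols. The authors deposited TPM values, 1 column per library. STAR 2.7.9a, RSEM 1.3.3 and the build Rnor_6.0 are named in the submitters' processing notes, while the annotation release and filters were not given in the sources used here. Depth is unknown, since TPM keeps no read number. RSEM shares reads between paralogs by estimate.

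Columns beginning with N were read as the normal saline vehicle and those with L as LPS. Columns of other samples numbered 0. The mean log2(TPM + 1) of each sample's libraries entered limma 3.58.1 in R 4.3.3, with a variance trend and a block for the sample number, as the design text describes a paired study. Degrees of freedom were 2 residual and 4.97 prior. Same-numbered samples correlated at 0.0622, -0.0175 and 0.0686 in their deviations from the group means over all tested genes, and the block was kept on the design text alone. Of 32883 genes 12393 were tested. A call is an adjusted p under 0.05. The fit was first run on simulated data with known changes, with the Vehicle spread in both groups and no shift over all genes. In the measured data the median SD on the log2 scale was 0.25 in LPS and 0.17 in Vehicle, and the median change was -0.38. The simulated run therefore gives no error rate for the calls reported here.

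The 9 genes, the lists and the tests were chosen with earlier results of these data known. Named from the lists were the called genes and the 2 most abundant not called in each, except 2 genes that are not reported here, and the 5 genes most like Birc3 and Tnfaip3. Neighbouring genes, Nod2, Card9 and the genes named for their markers were named after their values were seen. Rnf11 and Mcl1 were not analysed here. Gene order and promoters came from RefSeq tables for GRCr8, matched by symbol. Alternatives were another block, summary, pseudocount, filter, scaling or variance model, leaving out each sample number, and, chosen after seeing the data, leaving out the 3 libraries in which a marker list of another cell type summed to at least 100 TPM and over 2 times any other library.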

Additional observations from a re-analysis of the deposited data

How the results depend on the processing

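Over 16 alternatives Birc3 kept a log2 change between 5.36 and 6.41 and was called in 14, Ripk2 lay between 2.35 and 3.40 and was called in 14, and Tnip1 lay between 0.74 and 1.27 and was called in 12. Without the replicate block 8 of the 9 genes, 912 genes higher and 3624 lower, and 20 genes of the 6 lists were called, and Birc3 had adjusted p = 1.16e-05; the block changed no call of the 9. Leaving out each sample number in turn gave between 0 and 8 of the 9 genes, between 0 and 1004 genes higher, between 0 and 3595 lower and between 0 and 19 of the list genes. The 0 without replicate 3 stands beside 738 genes higher and 1463 lower at an unadjusted p under 0.05 by limma. The median over libraries gave 0 of each, with 1019 and 4167 at an unadjusted p under 0.05, and adjusted p between 0.0545 and 0.079 for the 8 genes. No filter on low values gave 2 of the 9, 18 genes higher, 2 lower and 0 of the list genes, 26 of them with an unadjusted p under 0.05. All 18 libraries with an estimated correlation gave 5295 lower and 27 list genes. Median-ratio scaling gave 821 higher, 460 lower and 10 list genes, with a median change of -0.02 over all tested genes, against 889 and 2757 in the reported fit. Quantile normalization gave 809 higher, 579 lower and a median of -0.12. Leaving out the 3 libraries that stood apart gave 1131 lower and 10 list genes. The cause was not tested. Among genes without a call, the sign changed for Rbck1 (0.27), Diablo (0.23), Erbin (0.20), Prdx5 (0.38) and Txn2 (0.24) with median-ratio scaling, for Rbck1 (0.0159) and Erbin (0.0292) with quantile normalization, and for Traf1, Gadd45b and Prdx5 without replicate 2. Leaving out each sample number gave between -0.55 and 0.0085 for Traf1, between -0.0125 and 1.44 for Gadd45b, between 0.21 and 1.69 for Ier3 and between -0.0854 and 0.00452 for Prdx5. Traf1 has no value at a minimum mean of 5 TPM. With both ratios of gene pairs the exact test could not go below p = 0.1, or 0.333 with 2 samples a group; without a replicate the difference lay between 4.68 and 4.77 for Birc3 to Birc2 and between 2.31 and 3.46 for Tnfaip3 to Tnip1. The deposited TPM give no read numbers, so the counting error of low genes such as Traf1 is unknown.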
